A study of Sus scrofa with 24 samples.

Results

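Of 8 genes chosen as markers of neutrophils, 7 had a probe on the porcine arrays, out of 10951 named genes tested. They were CXCR2, a receptor for the chemokine CXCL8, NCF1, NCF4 and CYBB, subunits of the phagocyte NADPH oxidase, and S100A8, S100A9 and S100A12, calcium-binding proteins of neutrophil cytosol. They were chosen by name: a probe was used where the file's gene name, or the symbol in its description, was that of the gene, in any letter case. A probe that names NCF4 only in free description text was not used. The CYBB probe carried the older name GP91-PHOX, which the RefSeq gene table pairs with CYBB. The eighth gene, CSF3R, the receptor for granulocyte colony-stimulating factor, was not analysed here. Where a gene had several probes, the one with the highest mean over the arrays was used.

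Neutrophils leave the blood towards CXCL8 and related chemokines, which they sense through CXCR1 and CXCR2. On contact with microbes they assemble an oxidase from CYBB and CYBA in the membrane and NCF1, NCF4, a Rac protein and others from the cytosol, and it makes superoxide. S100A8 and S100A9 pair to form calprotectin, which binds zinc and manganese and is also a ligand of TLR4, and S100A12 is a close relative. None of these genes is exclusive to neutrophils: monocytes and macrophages express all 3 kinds, and B cells also make the oxidase.

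The samples were pieces of liver, spleen, jejunum without Peyer's patches (labelled Jejunum) and jejunum with Peyer's patches (labelled Peyer) from 6 crossbred pigs, numbered 68, 69, 70, 71, 73 and 75. All had been weaned at 28 days, fed a standard diet and killed by bleeding at 10 weeks of age, with no treatment that differed between them. Each of the 24 pieces was hybridised to 1 one-colour Agilent array, so every tissue has 6 arrays, 1 from each animal, and the design asks how the tissues of the same animals differ. Whole tissue was used, so fewer cells of a type and less RNA per cell cannot be told apart in any comparison here.

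Each level is the log2 signal of a probe minus the 75th percentile of its array; levels of 1 probe can be compared between arrays, but not those of different probes. A gene was called different where the adjusted p was under 0.05 and the fold at least 2. The share of probes well above background ran from 60.4% to 75.6% of an array. Liver markers (ALB, TTR, APOA1, FGA and SERPINA1) had a mean level of 8.83 ± 0.09 (SD, n = 6) in liver and at most 0.52 on any other array, and markers of small intestine had means of 6.87 in Jejunum and 5.82 in Peyer against at most -1.4 on any liver or spleen array. Among arrays that stood apart on label markers, the spleen of animal 73 had a small intestine marker mean of -1.59, where the other 5 spleens lay between -5.71 and -4.62. Without animal 73 all 7 genes were still called higher in spleen than in liver, with differences from 1.37 (S100A12) to 3.49 (CXCR2). One array went partly against its label: in Peyer of animal 71 the B cell markers had a mean of -1.03, where the other 5 Peyer arrays lay between 1.74 and 2.01, and the Peyer's patch markers one of -1. Liver and spleen shared slides 1 to 3, and Jejunum and Peyer shared slides 4 to 6. So only spleen against liver and Peyer against Jejunum can be compared within slides, and for every other pair of tissues slide and tissue cannot be told apart.

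The 3 groups of genes had different orders of tissues. CXCR2 was high in spleen alone, the oxidase genes were high in spleen and Peyer and low in liver and Jejunum, and the S100 genes were highest in spleen, lower in liver and near background in both intestinal tissues. All 7 genes were called higher in spleen than in liver, where 20.7% of all named genes tested were called higher. In Peyer against Jejunum 5 of 7 were called higher, where 5.95% of all named genes were, and 2 of those 5 calls rest on signals near background. The median difference of the 7 genes was 2.4 for spleen minus liver and 1.32 for Peyer minus Jejunum, beside 0.1 and -0.12 over all named genes.

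**Figure D1:**
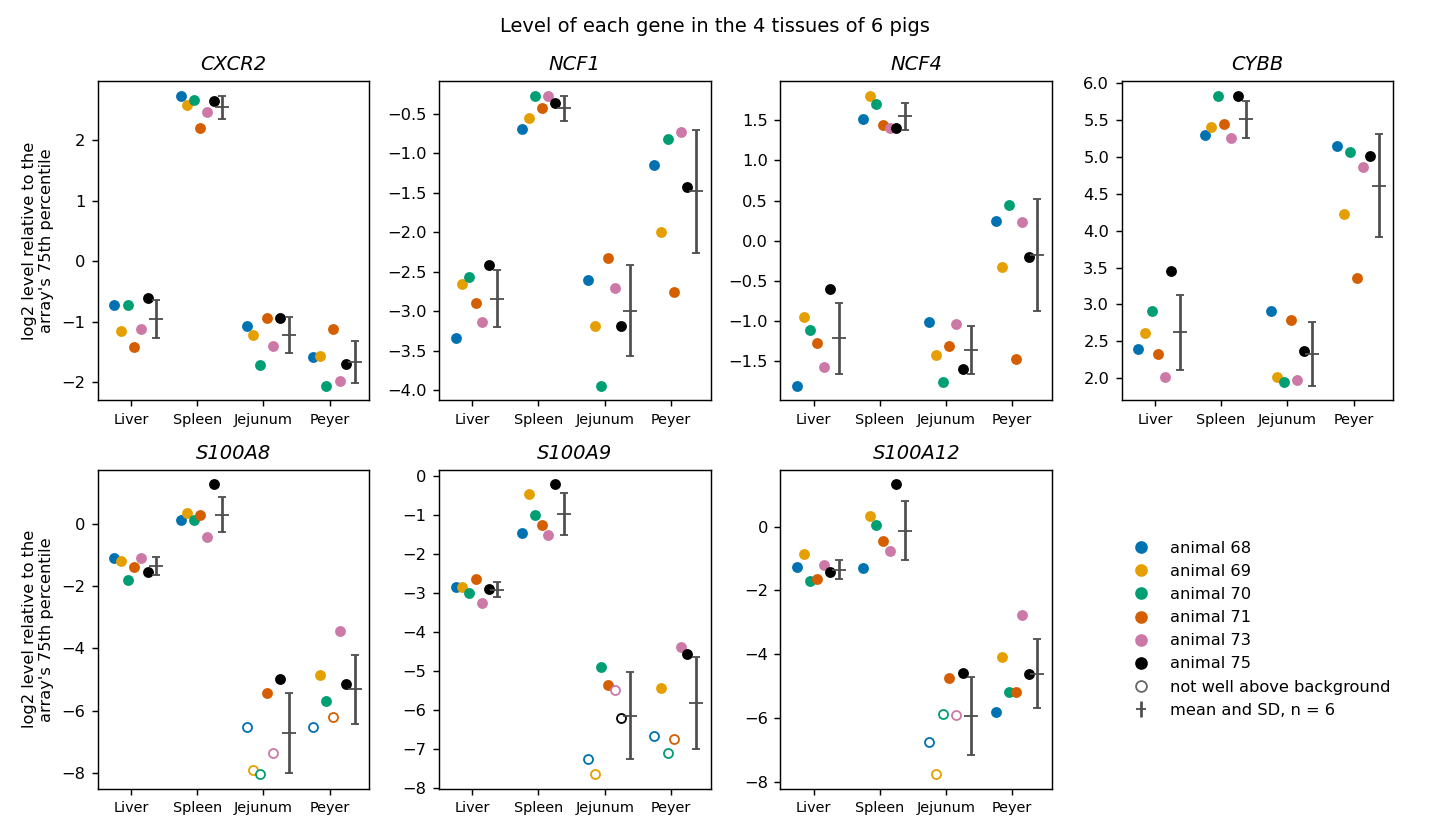
Level of each gene (vertical axis, log2 relative to the array's 75th percentile) on each of the 24 arrays, by tissue and coloured by animal; the bars give the mean and SD of 6 arrays and open circles were not well above background. The CXCR2 points stand high in spleen alone, the 3 oxidase genes are also high in Peyer, with animal 71 the lowest there, and the S100 genes have open circles in Jejunum and, for S100A8 and S100A9, in Peyer.

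The receptor gene CXCR2 had levels of 2.73, 2.58, 2.66, 2.21, 2.47 and 2.65 in the spleens of animals 68, 69, 70, 71, 73 and 75. In liver the same animals had -0.72, -1.16, -0.73, -1.42, -1.13 and -0.61. The spleen and liver values did not overlap, and the spread within each tissue was small beside the gap. The difference of 3.51 ± 0.17 (SE, n = 6 per tissue) is 11.4-fold, with an adjusted p of 1e-14, and it was 3.6, 3.5 and 3.43 on slides 1, 2 and 3.

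In Jejunum CXCR2 had levels of -1.08, -1.23, -1.72, -0.94, -1.4 and -0.94 in the same order of animals. In Peyer it had -1.59, -1.57, -2.06, -1.12, -1.98 and -1.71. The Peyer value was the lower one in 6 of 6 animals, although the 2 groups overlapped. The difference of -0.46 ± 0.17 had an adjusted p of 0.036 but was 1.37-fold and was therefore not called. The oxidase genes, given next, had the opposite sign in this comparison.

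Across the slide sets, CXCR2 was called higher in spleen than in Jejunum by 3.77 ± 0.17 and lower in Peyer than in spleen, with a difference of -4.22. Jejunum minus liver was -0.26 with an adjusted p of 0.2, and Peyer minus liver was -0.71 with an adjusted p of 0.00074, 1.64-fold and not called. The order was spleen, liver, Jejunum and Peyer, and the last 3 did not differ by 2-fold between neighbours.

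Probes of the 3 oxidase genes are shown here because these genes share a pattern over the tissues. Each is printed as the arrays carry it, from 5′ to 3′, with the longest run of bases that it shares with another of the 3 in capitals; the runs are 6 bases for NCF1 and 10 for NCF4 and CYBB. For NCF1 and NCF4 these are the probes behind the levels below. For CYBB the less bright of its 2 probes is shown; the levels below come from the brighter one, whose sequence is not printed, and the differences of the shown probe are given after them.
NCF1: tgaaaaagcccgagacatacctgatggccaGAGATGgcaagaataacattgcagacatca
NCF4: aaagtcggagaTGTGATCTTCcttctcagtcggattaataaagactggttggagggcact
CYBB: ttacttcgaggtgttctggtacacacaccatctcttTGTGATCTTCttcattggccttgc

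NCF1, the p47phox organiser of the oxidase, had spleen levels of -0.69, -0.56, -0.27, -0.43, -0.28 and -0.37 in animals 68, 69, 70, 71, 73 and 75. Its liver levels were -3.34, -2.66, -2.57, -2.9, -3.14 and -2.42. Every spleen lay above every liver, with a difference of 2.4 ± 0.29, 5.29-fold, and an adjusted p of 9.9e-08.

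In Jejunum NCF1 had -2.6, -3.18, -3.94, -2.33, -2.71 and -3.18 in the same order. The Peyer levels were -1.15, -2, -0.82, -2.76, -0.73 and -1.43. Animal 71 was the exception: its Peyer level was the lowest of the 6 with a difference of -0.43 from its own Jejunum, and it alone made the groups overlap. The difference was 1.51 ± 0.29 with an adjusted p of 4e-04, higher in 5 of 6 animals, and 1.76 without that array. A second NCF1 probe was well above background on 2 of the 24 arrays and was not tested.

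NCF4, the p40phox subunit that binds a membrane lipid, had spleen levels of 1.52, 1.81, 1.7, 1.44, 1.41 and 1.41. Liver gave -1.81, -0.95, -1.12, -1.28, -1.58 and -0.6. The groups stood clear of each other by 2.77 ± 0.25, 6.82-fold, with an adjusted p of 7.8e-10.

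Jejunum levels of NCF4 were -1.02, -1.43, -1.77, -1.31, -1.04 and -1.6. Peyer gave 0.24, -0.33, 0.44, -1.48, 0.23 and -0.2. Again the array of animal 71 was the only Peyer array within the Jejunum range. The difference was 1.18 ± 0.25, 2.26-fold, with an adjusted p of 0.00091, and it was higher in 5 of 6 animals. Without animal 70 it was 0.97, under 2-fold, and the call was lost.

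CYBB, the catalytic gp91phox subunit, had spleen levels of 5.3, 5.41, 5.83, 5.44, 5.26 and 5.83. Liver had 2.4, 2.61, 2.91, 2.33, 2.02 and 3.45. All spleens again exceeded all livers, with a difference of 2.89 ± 0.28, 7.42-fold, and an adjusted p of 2.2e-09.

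CYBB in Jejunum stood at 2.91, 2.01, 1.95, 2.79, 1.98 and 2.37. Peyer had 5.15, 4.22, 5.06, 3.36, 4.86 and 5.01. Here the groups did not overlap even with animal 71, whose Peyer array was again the lowest and exceeded its own Jejunum by 0.57. The difference of 2.28 ± 0.28, 4.85-fold, had an adjusted p of 5.1e-06, and it was 2.23, 1.84 and 2.76 on slides 4, 5 and 6, of which slide 6 was scanned on another day. The CYBB probe printed above gave 2.95 for spleen minus liver and 1.77 for Peyer minus Jejunum.

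**Figure D2:**
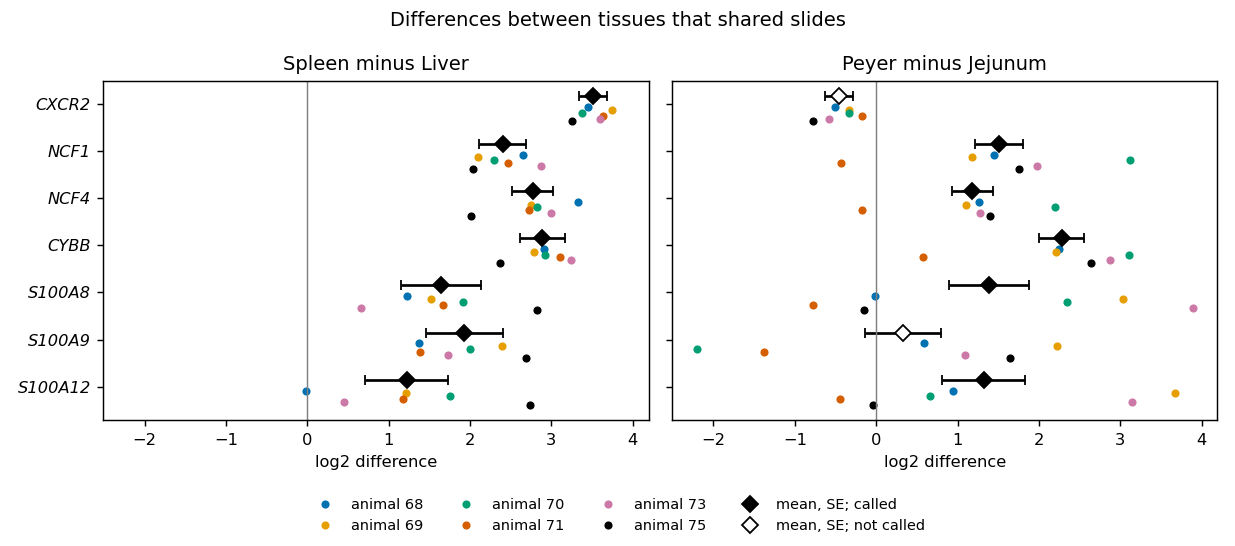
Difference in level (horizontal axis, log2) for spleen minus liver and for Peyer minus Jejunum; diamonds give the mean and SE of the fit over 6 animals per tissue, filled where called, and points give each animal's own difference. The S100 points of single animals spread over both sides of 0 in Peyer minus Jejunum, from -2.2 to 3.89, while CYBB is above 0 in all 6 animals.

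The array that was low in the oxidase genes was also the one low in B cell markers, of which 7 of 8 were tested. Their mean level was -3.49 in Jejunum, with arrays from -3.65 to -3.31. In Peyer it was 1.79, 2.01, 1.74, -1.03, 1.85 and 1.96 in animals 68, 69, 70, 71, 73 and 75. In spleen it ran from 0.7 to 1.25 and in liver from -3.78 to -3.44, so B cell markers and oxidase genes were high in the same 2 tissues. Of the 7, 6 were called higher in spleen than in liver (20.7% of all named genes were) and 5 in Peyer than in Jejunum (5.95%). The part of B cells in the oxidase levels was not tested.

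**Figure D3:**
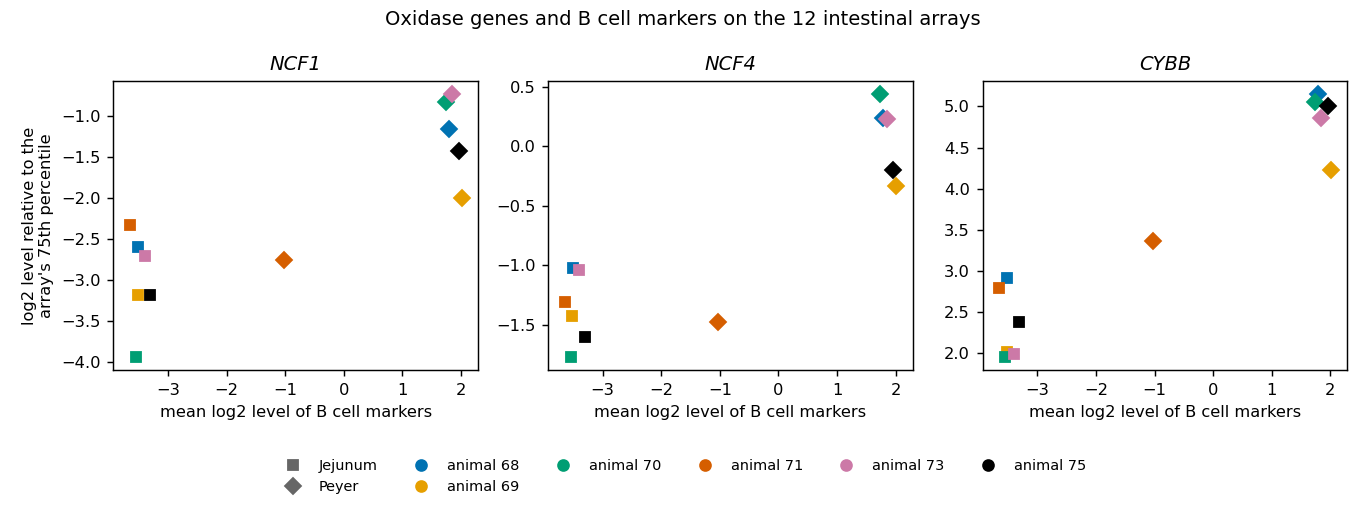
Level of each oxidase gene (vertical axis, log2 relative to the array's 75th percentile) against the mean level of 7 B cell markers (horizontal axis, log2) on the 12 intestinal arrays, squares for Jejunum and diamonds for Peyer, coloured by animal. The Peyer array of animal 71 lies at -1.03 on the horizontal axis, apart from the other 5 Peyer arrays, and is the lowest Peyer array for all 3 genes.

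Of 14 markers of monocytes and macrophages 13 were tested. In spleen 8 were called higher and 2 lower than in liver, where 20.7% and 18% of all named genes were. In Peyer against Jejunum 2 were called higher and none lower by limma, where 5.95% of all named genes were called higher. The 2 were CD5L and SIGLEC1, named after their values were seen. At an unadjusted p under 0.05 with limma, 5 were higher and 3 lower in Peyer. Without the Peyer array of animal 71 the called markers there were 3 higher and 2 lower. Their mean level was 3.01 in spleen (arrays from 2.68 to 3.43), 2.37 in liver (1.89 to 2.61), 0.37 in Peyer (0.08 to 0.74) and 0.1 in Jejunum (-0.1 to 0.3). In Peyer against liver 8 of the 13 were called lower and 1 higher (21.1% and 19% of all named genes were), while each of the 3 oxidase genes was called higher. The 5 T cell markers were all called higher in spleen than in liver and none was called by limma between Peyer and Jejunum, where 1 was higher at an unadjusted p under 0.05. The part of these cells in the results was not tested.

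Across the slide sets, Peyer stood between spleen and the other tissues for all 3 oxidase genes. Peyer minus spleen was -1.05 for NCF1 (adjusted p = 0.0037), -1.73 for NCF4 (adjusted p = 3.8e-06) and -0.9 for CYBB (adjusted p = 0.0081, under 2-fold and not called). Leaving out animal 69 or animal 71 moved NCF1 to -0.97 and -0.79 and ended its call, and without animal 68 or 73 CYBB came to -1.05 and -1 and was called. Peyer minus liver was 1.35, 1.04 and 1.99 for NCF1, NCF4 and CYBB, all called; NCF4 lost its call without animal 68 (0.84), 70 (0.94) or 73 (0.89). Spleen minus Jejunum was 2.56, 2.91 and 3.18. Liver and Jejunum were not told apart: Jejunum minus liver was -0.15, -0.14 and -0.29, with the lowest adjusted p at 0.38.

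Other genes of the oxidase were mostly higher in spleen than in liver, and mostly not called between the intestinal tissues. Of the 8 in the list, 6 were tested. By limma 4 were called higher in spleen than in liver (20.7% of all named genes were) and 1 in Peyer than in Jejunum (5.95%). None was called lower in either. At an unadjusted p under 0.05, 6 and 4 were higher and again none lower. RAC2, the Rac protein of blood cells, was higher in spleen by 3.61 ± 0.26, and CYBA, the membrane partner of CYBB, by 2.53 ± 0.14. The next brightest CYBA probe gave -0.13 for the same comparison, so the 2 probes disagree. DUOX2, an oxidase of epithelium, was higher in spleen by 3.61 ± 0.48, although it was well above background on 1 of 6 liver arrays. In Peyer against Jejunum the call was HVCN1, a proton channel that sustains the oxidase and is also made by B cells, at 2.64 ± 0.31, while CYBA was 0.74 and RAC2 0.59, neither called. Without the Peyer array of animal 71 the count in that comparison was 2.

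The calprotectin genes are shown by their probes because the 3 genes are related and share an order of tissues. S100A8, S100A12 and S100A9 are consecutive genes in the RefSeq table of Sscrofa11.1; the array files name no genome build, so no positions are given. The longest run shared by any pair of the 3 probes is 6 bases, and a run of that length is in capitals on each. The capitals of S100A8 and S100A12 are the same run. Those of S100A9 match the start of the S100A8 probe, which is in small letters.
S100A8: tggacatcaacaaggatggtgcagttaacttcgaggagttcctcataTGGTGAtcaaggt
S100A9: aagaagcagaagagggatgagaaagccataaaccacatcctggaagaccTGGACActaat
S100A12: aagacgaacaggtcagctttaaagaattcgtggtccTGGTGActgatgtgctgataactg

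S100A8 had spleen levels of 0.13, 0.33, 0.11, 0.27, -0.44 and 1.26 in animals 68, 69, 70, 71, 73 and 75. Liver had -1.1, -1.19, -1.81, -1.39, -1.1 and -1.56. The spleen of animal 75 was the highest and that of animal 73 the lowest, and no liver reached either. The difference was 1.64 ± 0.49, 3.11-fold, with an adjusted p of 0.0052, smallest in animal 73 (0.66) and largest in animal 75 (2.82).

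In the intestine S100A8 was near background. Jejunum had -6.51, -7.89, -8.03, -5.43, -7.34 and -4.97, well above background in animals 71 and 75 alone. Peyer had -6.53, -4.86, -5.68, -6.21, -3.45 and -5.13, well above background on 4 of 6 arrays. The difference of 1.39 ± 0.49 was called (adjusted p = 0.028), but Peyer exceeded Jejunum in only 3 of 6 animals, and the call was lost without animal 69 (1.06), 70 (1.19) or 73 (0.88).

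S100A9, the partner of S100A8, had spleen levels of -1.48, -0.48, -1, -1.27, -1.52 and -0.22. Liver had -2.86, -2.86, -3.01, -2.66, -3.25 and -2.91, a range far narrower than that of the spleens. Animals 69 and 75 had the highest spleens, and all 6 were above every liver. The difference was 1.93 ± 0.47, 3.81-fold, with an adjusted p of 0.00086.

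S100A9 in Jejunum had -7.27, -7.65, -4.91, -5.36, -5.48 and -6.21, with 2 of 6 arrays well above background. Peyer had -6.68, -5.44, -7.11, -6.74, -4.4 and -4.56, with 3 of 6. The values overlapped throughout, and the difference of 0.33 ± 0.47 was not called (adjusted p = 0.59). A second probe named for S100A9 was well above background on 1 of 24 arrays and was not tested. Read on its opposite strand, that probe holds an ATG followed by an open frame of 17 codons with the ATG included. The printed strand also starts with an ATG, in a frame without a stop codon, so an open frame does not tell the strands apart. The capitals mark the ATG of the opposite strand as it stands reversed on the printed strand.
S100A9, second probe: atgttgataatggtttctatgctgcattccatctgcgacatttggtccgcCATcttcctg

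S100A12, which is also called calgranulin C, had spleen levels of -1.3, 0.34, 0.05, -0.44, -0.76 and 1.33. Liver had -1.28, -0.87, -1.7, -1.63, -1.21 and -1.41. The spleen of animal 68 lay level with its liver, so the groups overlapped, and spleen was higher in 5 of 6 animals. The difference of 1.22 ± 0.51 was called with an adjusted p of 0.039, which is close to the threshold: without animal 70, 71 or 75 it was 1.11, 1.23 and 0.92, with adjusted p of 0.12, 0.068 and 0.14, and it was not called.

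S100A12 in Jejunum had -6.76, -7.77, -5.87, -4.75, -5.9 and -4.59, with animals 71 and 75 well above background. Peyer had -5.82, -4.1, -5.2, -5.19, -2.77 and -4.63, all 6 well above background. The difference of 1.32 ± 0.51 was called (adjusted p = 0.042) with Peyer higher in 4 of 6 animals, and the call was lost without animal 68 (1.4), 69 (0.85), 70 (1.46) or 73 (0.96). On slides 4, 5 and 6 it was 2.31, 0.11 and 1.55, so the middle slide showed almost none of it.

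Across the slide sets the S100 genes had the widest gaps of the 7. Spleen minus Jejunum was 6.97 for S100A8, 5.15 for S100A9 and 5.81 for S100A12, and Peyer minus spleen was -5.59, -4.83 and -4.49. Jejunum minus liver was -5.34, -3.22 and -4.59, and Peyer minus liver was -3.95, -2.9 and -3.27; all 12 differences were called and none of the groups overlapped. For each of the 3 genes only 2 of 6 Jejunum arrays were well above background, so these differences rest partly on signals at background level.

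By their mean levels, markers of monocytes and macrophages, of red cells and of platelets had spleen first, liver second and both intestinal tissues below. The S100 genes had the same order. The mean of the neutrophil granule genes tested, given below, had this order too, but many single genes of that list did not. For platelets the gaps were narrow, with means of -1.78 in spleen, -1.81 in liver, -2.12 in Peyer and -2.23 in Jejunum. The single platelet markers did not follow that mean. Of the 4 tested, 3 were lower and 1 higher in spleen than in liver at an unadjusted p under 0.05 with limma. Markers of monocytes and macrophages, cells that also make S100 proteins, had the means given above, with Peyer (0.37) over Jejunum (0.1). Those of red cells and their precursors had Jejunum over Peyer. Between these 2 tissues S100A9 was not called, and the calls of S100A8 and S100A12 rest on signals near background. Of 7 erythroid markers, which include HBB, the beta chain of haemoglobin, 6 were tested. Their mean level was 1.37 in spleen (arrays from 0.54 to 1.8), 0.01 in liver (-0.91 to 0.95), -2.76 in Jejunum (-3.07 to -2.49) and -3.19 in Peyer (-3.51 to -2.71). Of the 6, 4 were called higher and 1 (SLC4A1, named after its value was seen) lower in spleen than in liver, where 20.7% and 18% of all named genes were. In Jejunum 5 were called lower than in liver, where 15.9% were. The part of blood and of monocytes and macrophages in the S100 levels was not tested.

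**Figure D4:**
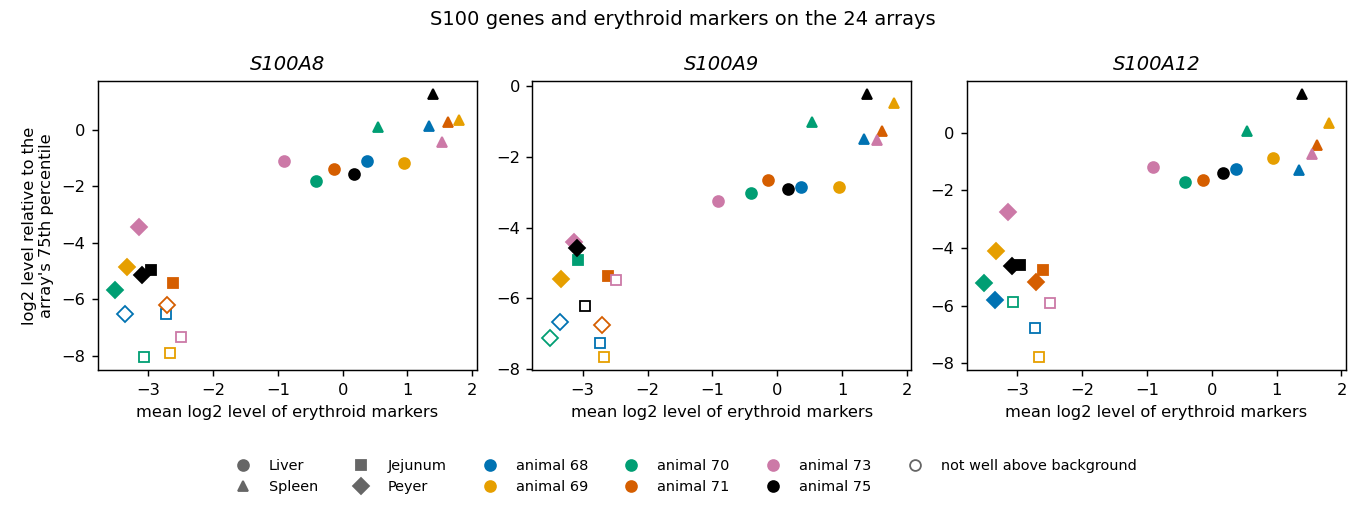
Level of each S100 gene (vertical axis, log2 relative to the array's 75th percentile) against the mean level of 6 erythroid markers (horizontal axis, log2) on the 24 arrays; shapes give the tissue, colours the animal, and open symbols were not well above background. The intestinal arrays lie low on both axes and the spleens high on both; among the spleens the highest S100 levels, of animal 75, do not go with the highest erythroid mean, of animal 69.

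Counted over all 7 genes, the comparisons across slide sets gave 6 called lower in Peyer than in spleen (14.6% of all named genes were), 3 lower in Jejunum than in liver (15.9%) and 7 higher in spleen than in Jejunum (15.2%). In Peyer against liver 3 were called higher (19%) and 3 lower (21.1%), the oxidase genes on one side and the S100 genes on the other. These comparisons share tissues with each other and with the 2 within slides.

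The authors' deposited table of normalized values gave another picture across the slide sets. In it the mean of the 12 intestinal arrays and the mean of the 12 liver and spleen arrays were nearly equal for every probe: over 42342 probes the gap had a median of 0.0544 and reached 0.7545 at most, against 0.4952 and 14.0843 in the scanner values of the same probes. For S100A8 the gap was -0.0324 in the deposited values and -5.46 in the scanner values, and for CXCR2 it was -0.0011 and -2.24. A table with such means cannot show a difference that separates the intestine from liver and spleen. Fitted in the same way, it put S100A8 0.52 higher in Jejunum than in liver, not called, where the scanner values gave -5.34. That table also put CXCR2 1.86 higher in Jejunum, where the scanner values gave -0.26, not called. Within slides the oxidase differences were also called in it.

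**Figure D5:**
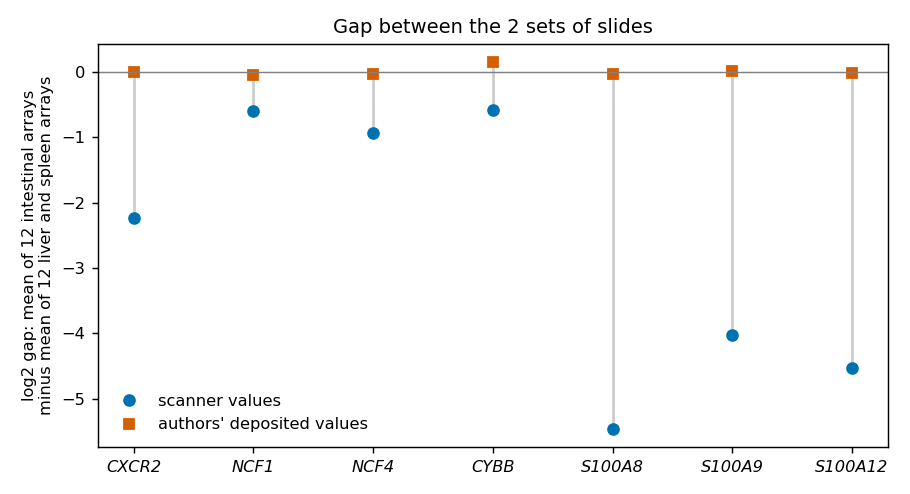
Gap between the mean of the 12 Jejunum and Peyer arrays (slides 4 to 6) and the mean of the 12 liver and spleen arrays (slides 1 to 3) on the vertical axis (log2), for each gene in the scanner values (circles) and in the authors' deposited values (squares). The squares lie within 0.1464 of 0 for all 7 genes, while the circles reach -5.46 for S100A8.

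Correlations among the members were taken over the same 24 arrays from which the groups were read, so they describe the groups again and do not test them. The arrays come from 6 animals and share each array's scaling. CXCR2 had a Pearson's r of 0.62 to 0.78 with the oxidase genes and of 0.7 to 0.79 with the S100 genes. Pearson's r was 0.98 for S100A8 with S100A12, 0.95 for S100A9 with S100A12, 0.96 for NCF1 with NCF4 and with CYBB, and 0.44 to 0.6 between an oxidase gene and an S100 gene. After each tissue's mean was removed it was 0.86 for NCF1 with NCF4, 0.8 for NCF1 with CYBB, 0.82 for S100A8 with S100A12 and 0.75 for S100A9 with S100A12, against 0.45 for S100A8 with S100A9. Single tissues differed: NCF1 with NCF4 had -0.21 in spleen and 0.96 in Peyer, and S100A9 with S100A12 had -0.19 in liver and 0.95 in spleen. Most S100 signals in Jejunum were not well above background. Within Peyer, CXCR2 had r of -0.93 with NCF1, -0.91 with NCF4 and -0.81 with CYBB over the 6 arrays, a description of few points that include animal 71.

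The named genes whose levels over the 24 arrays were most like each member differed by group. For CXCR2 they were PLVAP, an endothelial gene (Pearson r = 0.982), FCGR3B (0.971) and MAP3K3 (0.968). For NCF1 they were NCKAP1L (0.973), VAV1 (0.962) and APBB1IP (0.958), for NCF4 IRF5 (0.979), VAV1 (0.978) and RHOQ (0.977), and for CYBB NCKAP1L (0.976), RGS19 (0.975) and CCR7 (0.97). NCKAP1L and VAV1 are signalling genes of blood cells, and CCR7 is a chemokine receptor of lymphocytes and dendritic cells. For S100A8 they were PRCP (0.967), EPOR (0.958) and S1PR5 (0.955), for S100A9 NFE2 (0.959), S1PR5 (0.939) and EPOR (0.931), and for S100A12 PRCP (0.946), S1PR5 (0.942) and EPOR (0.931). S1PR5 and EPOR, the erythropoietin receptor, were thus both among the nearest genes of all 3 S100 genes. The 3 S100 genes had r of 0.93 to 0.98 with each other, so shared nearest genes add little.

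Of 15 chemoattractants, growth factors and their receptors 10 were tested; 6 were called higher in spleen and none lower by limma, and in Peyer against Jejunum 1 was called higher and none lower, where 20.7% and 5.95% of all named genes were called higher. At an unadjusted p under 0.05 these counts were 8 and 0 in spleen and 2 and 3 in Peyer. CXCR4, the receptor that holds neutrophils in marrow and is also strong on lymphocytes, was higher in spleen by 4.15 ± 0.34 and in Peyer by 3.28 ± 0.34. IL1B, an inflammatory cytokine, was higher in spleen by 2.44 ± 0.35, CXCL2, a ligand of CXCR2, by 2.23 ± 0.3, and PPBP, a platelet chemokine that also binds CXCR2, by 1.91 ± 0.32. In Peyer minus Jejunum these 3 were 0.2, 0.5 and 0.66, none called.

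Granule and effector genes, the products stored in maturing neutrophils, were mostly not called within slides. Of 23 listed 12 were tested. In spleen against liver 3 were called higher and 1 lower, where 20.7% and 18% of all named genes were. In Peyer against Jejunum 1 was called each way, where 5.95% were higher and 7.18% lower. MPO, CTSG, LCN2, CAMP and MMP8 were among those not tested. The list's mean level was -0.82 in spleen, -1.04 in liver, -2.61 in Peyer and -2.84 in Jejunum, the order of the S100 genes. Across the slide sets 7 were called higher and 1 lower in spleen than in Jejunum (15.2% and 15.3% of all named genes). In Peyer 8 were called lower than in spleen (14.6%) and none higher. Against liver, 6 were called lower and 2 higher in Jejunum (15.9% and 17.2%), and 7 lower and 1 higher in Peyer (21.1% and 19%). PGLYRP1, a bactericidal granule protein, was higher in spleen by 3.4 ± 0.66 and in Peyer by 2.8 ± 0.66, with 2 liver arrays and 1 Jejunum array well above background. S100A4 and S100A11, relatives of the calprotectin genes that many cells make, were higher in spleen by 2.73 ± 0.39 and 2.53 ± 0.16, and stood at 0.42 and 0.51 in Peyer minus Jejunum, neither called. ARG1, a neutrophil granule enzyme in some species and a urea cycle enzyme of liver, was lower in spleen with a difference of -4 ± 0.29 and lower in Peyer with -1.18 ± 0.29; the latter was -0.97 without animal 70 and not called. Without the Peyer array of animal 71, 3 granule genes were called lower in Peyer.

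Adhesion and surface genes were few on the arrays. Of 12 listed 4 were tested, with 3 called higher in spleen than in liver (20.7% of all named genes were) and 2 in Peyer than in Jejunum (5.95%). ITGB2, the common chain of leukocyte integrins, was higher by 3.33 ± 0.25 in spleen and by 1.66 ± 0.25 in Peyer. FCGR3A, an antibody receptor, was higher in spleen by 2.07 ± 0.17 and stood at -0.05 in Peyer minus Jejunum. Both receptors of calprotectin tested were higher in spleen than in liver, CD36 by 4.93 ± 0.3 and TLR4 by 2.75 ± 0.21. In Peyer against Jejunum CD36 was lower with a difference of -1.08 ± 0.3, a call lost without animal 70 (-0.97) or 73 (-0.98), and TLR4 stood at 0.9, not called, and at 1.05 and called without animal 71.

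Transcription factors of the myeloid line did not move together. Of 8 listed 5 were tested. In spleen against liver 1 was called higher and 2 lower, where 20.7% and 18% of all named genes were. In Peyer against Jejunum 1 was called lower, where 7.18% were. SPI1, which drives myeloid and B cell genes, was higher in spleen by 2.02 ± 0.3, a call lost with normexp background correction (0.95). In Peyer minus Jejunum SPI1 was not called, but its next brightest probe gave 1.23 and was called. CEBPA, which is also a factor of hepatocytes, and CEBPD were lower in spleen with differences of -2.08 ± 0.22 and -1.78 ± 0.24; the next brightest CEBPD probe gave -0.39, not called. CEBPE, a factor of late granulocyte maturation, was lower in Peyer with -1.57 ± 0.4 and stood at -0.76 in spleen minus liver, not called. CEBPA in Peyer minus Jejunum was -0.94, and -1.09 and called without animal 71.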

How the data were processed

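Total RNA of 24 pieces of tissue was labelled with Cy3 and hybridised to one-colour Agilent arrays. Intensities were read by Agilent Feature Extraction 10.10.1.1, per the submitters' processing notes; the deposited processed signal intensity is already background-subtracted, per the file headers. A deposited table of 44600 probes holds the authors' normalized values on a log2 scale, for which limma is named in the same notes; every column has a median of 8.24, and what was done about slides is not stated in the sources at hand.

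From the scanner intensities, log2 values minus each array's 75th percentile were computed. Of 60305 probes, 42650 were tested, namely those without an outlier flag that some tissue measured well above background in all 6 animals. limma 3.58.1 in R 4.3.3 (lmFit and eBayes, tissue only, 24 arrays) gave p-values, adjusted by Benjamini-Hochberg over all probes tested. No probe was saturated, and precision is limited by having 6 arrays per tissue. The fit was tested on simulated data. Same-numbered samples come from 1 animal; deviations of such samples had a mean correlation of 0.17 over 36 pairs, against -0.034 over 180 other pairs. Genes named are all members, the 3 genes most alike per member, and up to 4 per neutrophil list with the largest called difference. Some genes of the lists are counted but not reported here by name. The members and lists were chosen with earlier results of these data known. Alternatives were the scaling, the background correction, the deposited values, the filter, array weights, the animal or slide as a block, other probes and leaving out animals.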

Additional observations from a re-analysis of the deposited data

Results flagged for a closer look

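Arrays that stood apart from the other 5 of their tissue were looked for among 144 sets of 6 levels, and 18 were found; chance gives about 1 in 20 such sets. None of the 28 sets of the 7 genes themselves was among them. On the Peyer array of animal 71, the mean of B cell markers was -1.03 (others 1.74 to 2.01), the mean of Peyer's patch markers -1 (others 2.54 to 3.44) and the mean of other oxidase genes 1.51 (others 2.07 to 2.26). The same array had HVCN1 at -3.96 (others -1.8 to -1.25), CXCR4 at -0.39 (others 2.16 to 2.66), CXCL2 at -2.66 (others -1.5 to -0.86), PGLYRP1 at -7.91 (others -3.49 to -2.45) and ITGB2 at 1.23 (others 2.69 to 3.05). It was high in ARG1 at -3.29 (others -4.84 to -4.29) and CEBPA at 5.08 (others 3.59 to 4.1). So 10 of the 18 lay on this array.

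The other 8 were on 8 arrays. The mean of small intestine markers was -1.59 in the spleen of animal 73 (others -5.71 to -4.62). HVCN1 was -3.21 in the liver of animal 68 (others -2.91 to -2.8), and CXCR4 was -2.2 in the liver of animal 75 (others -2.82 to -2.63). FCGR3A was 2.21 in the Jejunum of animal 70 (others 2.69 to 2.91). CEBPE was 0.39 in the liver of animal 73 (others -0.12 to 0.07) and -4.78 in Peyer of animal 69 (others -2.63 to -1.51). The mean of T cell markers was 1.48 in Peyer of animal 70 (others 0.73 to 0.93), and the mean of erythroid markers was 0.54 in the spleen of animal 70 (others 1.34 to 1.8).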

How the results depend on the processing

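With the animal as a replicate block, the counts of members called were 7, 5, 6, 3, 6 and 7 in spleen against liver, Peyer against Jejunum, Peyer against spleen, Jejunum against liver, Peyer against liver and spleen against Jejunum, and no count changed. In Peyer against Jejunum the count fell from 5 to 3 with normexp background correction, with the authors' deposited values, with only the 12 arrays compared and with slide as a block, and ran from 2 to 5 when 1 animal was left out. With the deposited values it was also 1 in Peyer against spleen, 1 in Jejunum against liver and 4 in spleen against Jejunum. With normexp, Peyer minus Jejunum turned to -0.11 for S100A8 and -0.04 for S100A12. The deposited values turned Jejunum minus liver to 1.86 for CXCR2, 0.52 for S100A8, 0.75 for S100A9 and 0.26 for S100A12, and Peyer minus liver to 1.44, 0.92, 0.77 and 0.74 in that order; the equal means of the slide sets in that table are given above. The next brightest CYBA probe gave -0.13 in spleen minus liver. S100A12 in spleen minus liver lost its call with median centring (1.11), normexp (0.99), no filter on low signal (1.22, adjusted p = 0.053) and array weights (1.42). NCF1 in Peyer minus spleen lost its call with median centring (-0.78), quantile normalization (-0.95), normexp (-0.98) and array weights (-0.67), and in Peyer minus liver NCF1 and NCF4 lost theirs with normexp (0.73 and 0.83). Over all named genes, the main fit called 652 higher and 786 lower in Peyer against Jejunum. The share of calls that were higher was 46.5% with normexp, 64.3% with median centring, 55.9% with quantile normalization and 56.5% in the deposited values. The balance of directions in that comparison therefore depended on the processing. Where no cause is named, the cause was not tested. Signals near background limit the S100 genes in the intestine.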

Other observations

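Of 5 platelet markers 4 were tested, with 1 called higher and none lower in spleen than in liver and none called in Peyer against Jejunum. Of 7 eosinophil and mast cell markers 3 were tested (CCR3, KIT and MS4A2); all 3 were called higher in spleen than in liver and none was called in Peyer against Jejunum. Of 7 squamous and other epithelial markers 4 were tested, with 3 called lower in spleen than in liver and none called in Peyer against Jejunum. Over all named genes 20.7% were called higher and 18% lower in spleen than in liver, and 5.95% and 7.18% in Peyer than in Jejunum. At an unadjusted p under 0.05 with limma, 1 platelet marker, 0 eosinophil and mast cell markers and 1 epithelial marker were lower in Peyer than in Jejunum, and none of the 3 lists had a higher one; 3 platelet markers were lower in spleen than in liver.

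The highest S100 levels of the spleens were those of animal 75 for all 3 genes, and the highest of the Peyer arrays were those of animal 73 for all 3. In Peyer of animal 73 S100A8 stood at -3.45, S100A9 at -4.4 and S100A12 at -2.77, each well above background, whereas Jejunum of that animal had none of the 3 well above background.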
